A study of Rattus norvegicus with 8 samples.

Results

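The genes described here are 9 that encode surface molecules and signalling proteins best known from T cells: Cd4, Cd8a, Cd8b, Cd2, Cd48, Cd5, Cd226, Lck and Sash3. They were measured in peritoneal macrophages of rats that had received carbon nanotubes. The 9 genes are among the 23487 of the deposited table and were chosen by name after results of the comparison reported below were known. Their own differences between the groups are therefore given as a description, without a test.

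RNA-seq was performed on macrophages of 8 female Wistar rats, 8 weeks old, collected 15 days after 1 intraperitoneal injection of 2 mg of nanotubes. Of these, rats 3, 5, 10 and 11 by the labels, received the needle-like and mesotheliomagenic multi-walled nanotube MWCNT-XNRI-7 (CNT-7). Rats 1, 2, 12 and 13 received the tangled CNT-T, which was not mesotheliomagenic. No untreated rat was among the samples used, so each difference is between both particles and not from the resting state. The cells were sorted as CD11b/c high and His48 dim, a gate without an antibody to a T cell antigen. The paper gives only a lower bound for macrophage purity by Diff-Quick staining, and none per rat, so some other cells may be present. RNA of a sorted population cannot tell fewer cells that carry a transcript from less of that transcript per cell.

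CD4 and CD8 are the coreceptors of T cells. CD4 binds MHC class II and CD8, a pair of alpha chains or of an alpha and a beta chain, binds MHC class I, and the tails of CD4 and CD8 alpha hold the kinase Lck. In the rat, CD4 is also present on monocytes and macrophages, and CD8 is found on natural killer (NK) cells and on some macrophages. CD2 binds CD48 in rodents, CD226 (DNAM-1) is an activating receptor for the nectin-like molecule Pvr and for Nectin2, CD5 is an inhibitory scavenger-type receptor of T cells and B-1 cells, and Sash3 (SLY1) is an adapter of lymphocytes.

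Between 27195157 and 33732981 counts were assigned per rat, so that 3 counts, taken as the smallest detectable level, correspond to 0.0887 to 0.109 CPM (counts scaled to a common library size). This floor covers counting error alone. All 12 macrophage markers examined, among them Csf1r and Cd68, passed the filter on low counts in these libraries, and together they reached 18990 to 25080 CPM after CNT-7 and 27590 to 39780 CPM after CNT-T, most of it from Lyz2. Of the T cell markers, the CD3 complex (Cd3e, Cd3d, Cd3g and Cd247) had few counts in most rats, but more in each CNT-7 rat than in any CNT-T rat. It had 162 counts in CNT-7 rat 5, 25, 38 and 28 counts in CNT-7 rats 3, 10 and 11, and 19, 9, 17 and 4 counts in CNT-T rats 1, 2, 12 and 13. The library of CNT-7 rat 5 thus stood apart: it had the highest level of 14 of the 18 T cell markers in the table, where no other rat led in more than 2, and of 9 of 13 B cell markers. Values for which it is decisive are therefore given below with and without this rat, and what its lymphocyte transcripts contribute to the member genes was not tested beyond that.

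Cd8a and Cd8b, the alpha and beta chains of CD8, were both higher after CNT-7. Cd8a (ENSRNOG00000007178) was measured at 8.74, 2.81, 5.31 and 7.20 CPM in CNT-7 rats 3, 5, 10 and 11, and at 0.717, 1.21, 0.758 and 0.895 CPM in CNT-T rats 1, 2, 12 and 13. The lowest CNT-7 rat was thus above the highest CNT-T rat, and the means were 6.02 ± 2.55 and 0.896 ± 0.224 CPM (SD, n = 4), a ratio of 6.72. The log2 fold change was 2.74 (SE 0.36), which lay above 98.95% of all genes tested. Cd8b (ENSRNOG00000007129), its neighbour on chromosome 4, was at 9.49, 3.25, 6.18 and 11.7 CPM after CNT-7 and at 1.34, 2.10, 2.44 and 3.33 CPM after CNT-T. Here the groups touched, since CNT-7 rat 5 was just below CNT-T rat 13, and the log2 fold change was 1.74 (SE 0.40).

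Of the CNT-7 group, rat 5 had the most CD3 transcripts and the least CD8. The other CNT-7 rats also had more CD3 transcripts than any CNT-T rat. The part of T cells in the CD8 difference was not tested. CNT-7 rat 5 was the lowest of its group for both chains, and without it the ratio of the means increased from 6.72 to 7.91 for Cd8a and from 3.33 to 3.97 for Cd8b. Both chains did not move in the same proportion. There were 1.09, 1.15, 1.16 and 1.63 counts of Cd8b for each count of Cd8a in CNT-7 rats 3, 5, 10 and 11, against 1.86, 1.73, 3.22 and 3.72 in CNT-T rats 1, 2, 12 and 13. The ratio was thus lower in each CNT-7 rat than in each CNT-T rat, and the CNT-T ratios rest on only 22 to 41 counts of Cd8a per rat. It is a ratio of counts and not per length, so it serves to compare rats and not the chains.

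**Figure D1:**
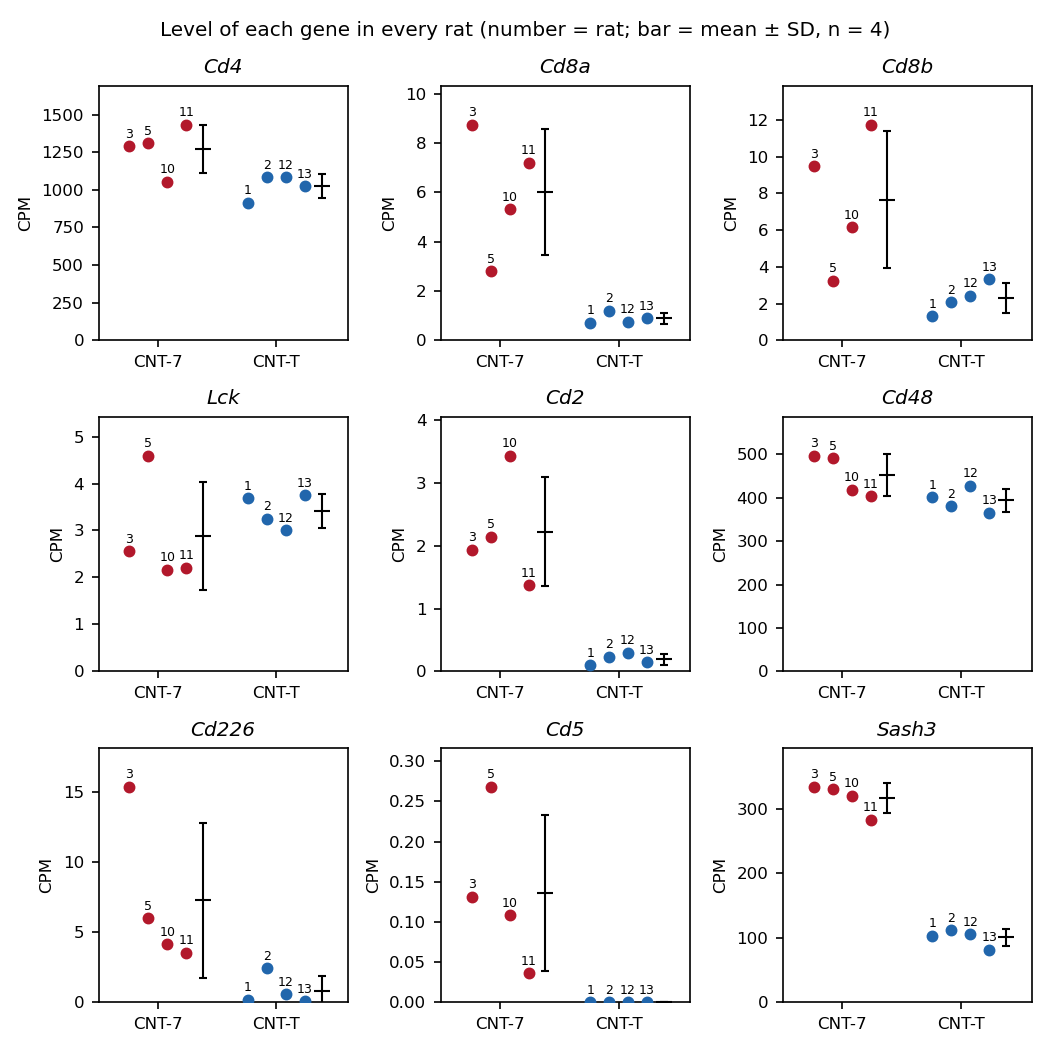
Level of each of the 9 genes in every rat, as CPM on linear axes that start at 0 and differ between panels, with 1 point per rat, the mean as a short bar and the SD as an error line cut at 0 (n = 4 per group). Cd8a, Cd2, Cd226 and Sash3 do not overlap between the groups, whereas Cd4, Cd8b, Cd48 and Lck do, and Cd5 has no count in any CNT-T rat.

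Cd4 (ENSRNOG00000016294) was well counted in every rat and differed little. It was at 1288, 1312, 1054 and 1432 CPM in CNT-7 rats 3, 5, 10 and 11, and at 913.9, 1085, 1086 and 1025 CPM in CNT-T rats 1, 2, 12 and 13. CNT-7 rat 10 fell within the CNT-T range. The means were 1272 ± 158 and 1027 ± 80.9 CPM (SD, n = 4) and the log2 fold change was 0.31 (SE 0.11). No rat had fewer than 28031 counts of Cd4, and CNT-7 rat 5 lay between the other rats of its group.

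Lck (ENSRNOG00000009705), the kinase that CD4 and CD8 alpha carry in T cells, did not follow its coreceptors. Its levels were 2.56, 4.59, 2.17 and 2.21 CPM in CNT-7 rats 3, 5, 10 and 11, and 3.68, 3.25, 3.0 and 3.76 CPM in CNT-T rats 1, 2, 12 and 13. Rat 5 was the highest of all 8 rats, while the other 3 CNT-7 rats were below every CNT-T rat. Over all rats the log2 fold change was -0.25 (SE 0.26), with means of 2.88 ± 1.15 and 3.42 ± 0.360 CPM (SD, n = 4). Without CNT-7 rat 5 the CNT-7 mean was 2.31 ± 0.218 CPM (SD, n = 3) and the log2 fold change -0.57 (SE 0.18), so that the difference was larger without this 1 library, and Lck then passed the threshold as lower.

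Cd2 (ENSRNOG00000015821), an adhesion receptor of T and NK cells, had few counts but differed widely. It was measured at 1.94, 2.14, 3.43 and 1.38 CPM in CNT-7 rats 3, 5, 10 and 11, and at 0.0978, 0.237, 0.297 and 0.143 CPM in CNT-T rats 1, 2, 12 and 13. The lowest CNT-7 rat exceeded the highest CNT-T rat, no CNT-T rat had more than 9 counts, and the highest rat was CNT-7 rat 10. The log2 fold change was 3.48 (SE 0.41), and 3.20 to 3.75 in fits without 1 of the rats. Its ligand Cd48 (ENSRNOG00000004737), a lipid-anchored protein of most leukocytes, was at 496.6, 491.6, 418.8 and 403.3 CPM after CNT-7 and at 401.0, 380.7, 427.8 and 365.4 CPM after CNT-T. The groups overlapped and the log2 fold change was 0.20 (SE 0.093).

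Cd226 (ENSRNOG00000038197) varied widely within each group. Its levels were 15.3, 5.997, 4.15 and 3.55 CPM in CNT-7 rats 3, 5, 10 and 11, and 0.196, 2.42, 0.593 and 0.0716 CPM in CNT-T rats 1, 2, 12 and 13. The groups did not overlap, but rat 3 of CNT-7 and rat 2 of CNT-T were each well above the rest of their group, with 467 and 82 counts. The log2 fold change was 3.10 (SE 0.83). It was 2.44 without CNT-7 rat 3 and 4.62 without CNT-T rat 2. CNT-7 rat 5 was the second of its group.

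Sash3 (ENSRNOG00000004409) differed with little spread between the rats. It was at 334.0, 330.7, 320.1 and 283.3 CPM in CNT-7 rats 3, 5, 10 and 11, and at 103.4, 112.2, 105.3 and 81.7 CPM in CNT-T rats 1, 2, 12 and 13. The means of 317 ± 23.3 and 101 ± 13.2 CPM (SD, n = 4) differed by a ratio of 3.15, and the gap between the groups was far wider than the spread within either. The log2 fold change was 1.66 (SE 0.11), and it stayed between 1.57 and 1.71 when each rat was left out.

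Cd5 (ENSRNOG00000020872) was barely detected. It had 4, 8, 3 and 1 counts in CNT-7 rats 3, 5, 10 and 11 and 0 counts in each CNT-T rat. Like Lck it was highest in rat 5, and its low counts kept it out of the fit across all genes, so that no fold change is given.

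**Figure D2:**
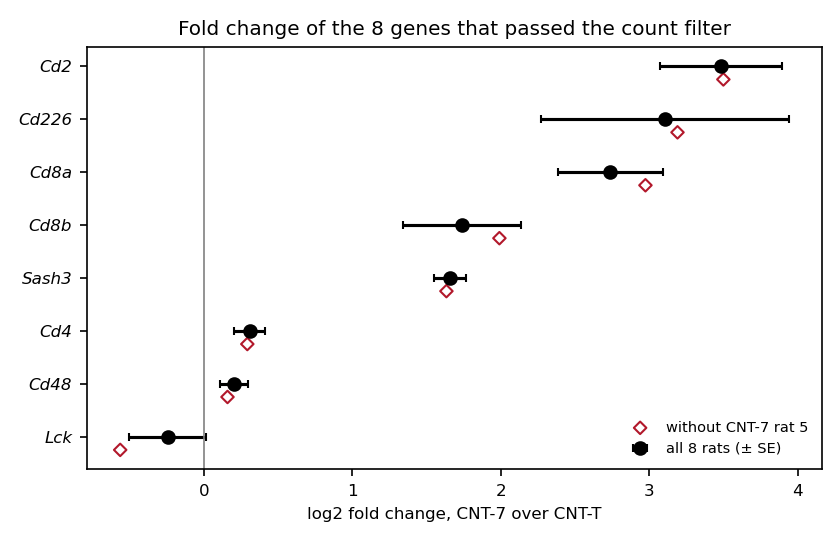
Log2 fold change (CNT-7 against CNT-T) for the 8 genes that passed the filter on low counts, with the SE as error bars, and the same without CNT-7 rat 5. Lck moves from -0.25 to -0.57 when that rat is left out, and all 8 genes keep their direction.

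Of the 9 genes, 8 passed the filter on low counts, which a gene can pass through its higher group alone. Of these 8, 6 were past the threshold applied to all genes (adjusted p-value under 0.10), and all 6 were higher after CNT-7: Cd4, Cd8a, Cd8b, Cd2, Cd226 and Sash3. In all 12124 genes tested, 27.9% passed, 13.9% higher and 14% lower after CNT-7. The CNT-7 and CNT-T rats did not overlap in 4 of the 8 genes (Cd8a, Cd2, Cd226 and Sash3), compared with 24.9% of all genes tested. Since the same contrast was known when the 9 genes were picked, nothing is read from either count. Of the 8 genes, Cd4 lay nearest to the threshold among those inside it and Cd48 among those outside it. Cd4 was past it in only 1 of the 8 fits that left out a rat, that without CNT-7 rat 10. Lck was past it, as lower, without CNT-7 rat 5, so that 5 genes were higher and 1 lower in that fit. Cd48 was past it, as higher, without CNT-7 rat 11, a fit in which Cd4 was not. The median log2 fold change of the 8 genes was 1.70, beside 0.0083 for all genes tested. Since the genes were picked with this contrast known, nothing is read from that difference either.

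The start regions of these genes were compared for short motifs of factors known from T cells. In the RefSeq promoter table of assembly GRCr8, 6 of the 9 genes had a window, of which the 250 bases before the start site are used. Shown are Cd8a and Cd2, which differed between the groups without overlap, and the windows of both Lck start sites of the table, which lie 17617 bases apart, since Lck did not follow CD8. Capitals mark the ETS core GGAA and the RUNX motif TGTGGT on either strand (TTCC and ACCACA on the other strand), which overlap nowhere in them.
Cd8a, chr4:104923866-104924115, plus strand: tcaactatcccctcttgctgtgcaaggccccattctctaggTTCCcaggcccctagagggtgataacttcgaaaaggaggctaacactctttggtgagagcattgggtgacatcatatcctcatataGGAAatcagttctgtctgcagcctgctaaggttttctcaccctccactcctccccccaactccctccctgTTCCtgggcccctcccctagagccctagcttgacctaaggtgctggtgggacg
Cd2, chr2:191412660-191412909, minus strand: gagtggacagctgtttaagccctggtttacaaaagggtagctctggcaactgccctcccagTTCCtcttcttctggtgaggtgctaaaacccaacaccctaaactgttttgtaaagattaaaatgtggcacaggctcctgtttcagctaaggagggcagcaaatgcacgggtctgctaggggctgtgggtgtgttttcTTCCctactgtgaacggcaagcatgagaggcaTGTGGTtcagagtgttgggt
Lck start 1, chr5:147201268-147201517, minus strand: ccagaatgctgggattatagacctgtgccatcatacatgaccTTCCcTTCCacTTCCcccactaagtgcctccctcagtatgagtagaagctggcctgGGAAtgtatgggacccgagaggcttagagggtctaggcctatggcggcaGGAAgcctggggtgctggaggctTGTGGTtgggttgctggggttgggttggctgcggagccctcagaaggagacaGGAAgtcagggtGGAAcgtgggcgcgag
Lck start 2, chr5:147183651-147183900, minus strand: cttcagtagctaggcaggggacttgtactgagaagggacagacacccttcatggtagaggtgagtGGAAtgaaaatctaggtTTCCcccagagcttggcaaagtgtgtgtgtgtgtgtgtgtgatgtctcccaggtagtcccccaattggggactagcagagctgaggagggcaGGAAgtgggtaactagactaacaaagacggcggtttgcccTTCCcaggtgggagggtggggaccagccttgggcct
The ETS core was found 3 times before Cd8a, 2 times before Cd2, and 7 and 4 times before the first and second Lck start. Cd226, Cd48 and Cd5, whose windows are not shown, had 3, 5 and 3 ETS cores. The RUNX motif was found once each before Cd2, Cd226 and the first Lck start, and not before Cd8a, Cd48, Cd5 and the second Lck start. Of 33469 promoters of this length, 93.2% hold the ETS core and 14.5% the RUNX motif. The third motif searched, the AP-1 site TGANTCA, is in 6.34% of them and in no window of the 6 genes. A match is a description of these letters and not of a bound site.

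Genes that mark T cells were examined beside the member genes. This list and those below were chosen with earlier results of these data known, so their counts of calls are descriptions. Of all genes tested, 13.9% passed as higher and 14% as lower after CNT-7. Of 25 listed, 18 were in the table. The symbols not found were all T cell receptor chain genes (Trac, Tcra, Trbc1, Trbc2, Tcrb, Trdc and Trgc1), so these chains could not be examined. Only 5 of the 18 had enough counts to be tested. One of these, Ubash3a, was higher after CNT-7 (log2 fold change 2.99, SE 0.29, adjusted p = 0.000307 by edgeR's quasi-likelihood test). Ubash3a encodes a phosphatase-like protein of lymphoid cells that restrains T cell receptor signalling. Its levels were 4.27, 6.33, 4.08 and 3.08 CPM in CNT-7 rats 3, 5, 10 and 11, and 0.717, 0.384, 0.528 and 0.609 CPM in CNT-T rats 1, 2, 12 and 13. It was highest in rat 5, but each of the other CNT-7 rats was also above each CNT-T rat, and it passed without every rat in turn.

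The other 4 T cell markers tested did not pass, with log2 fold changes of -0.36 for Cd6, -0.26 for Cd28, -0.07 for Icos and 0.76 for Lat. The summed level of the list was 30.1 to 51.7 CPM after CNT-7 and 35.4 to 41.8 CPM after CNT-T, most of it from Icos. When no filter on low counts was set, 6 of 18 T cell markers passed, all higher after CNT-7, namely Ubash3a, Cd3e, Cd247, Zap70, Tcf7 and Skap1. When CNT-7 rat 5 was also left out, an alternative chosen after the data were seen, Ubash3a alone passed. The CD3 complex of the remaining CNT-7 rats, at 0.821 to 1.37 CPM, was still above that of the CNT-T rats, at 0.143 to 0.619 CPM.

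**Figure D3:**
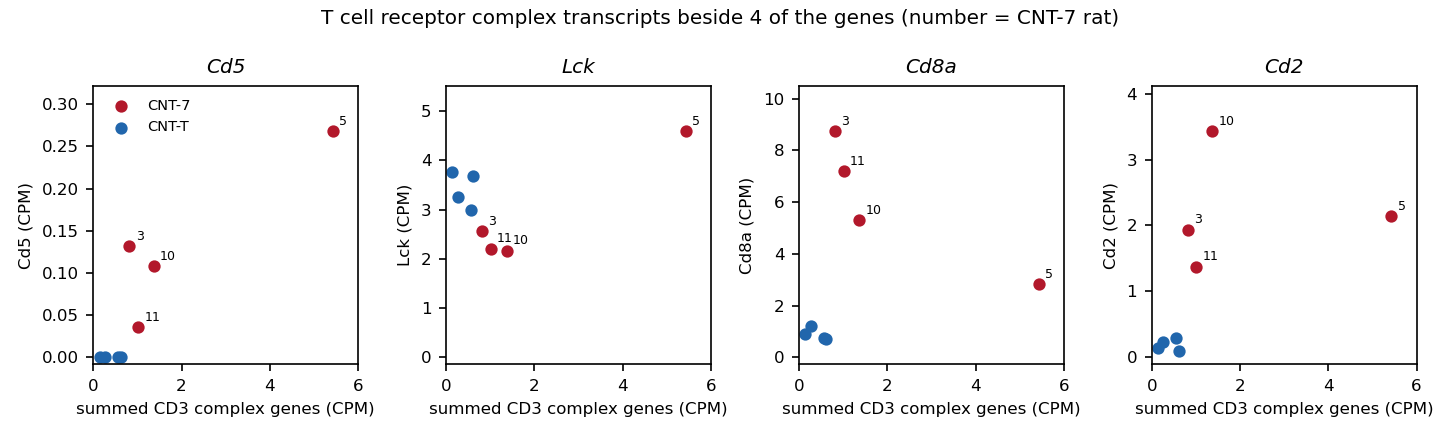
Level of 4 of the genes (vertical axes, CPM) against the summed level of the CD3 complex (horizontal axes, CPM), 1 point per rat, with the rat number beside the CNT-7 points. CNT-7 rat 5, at 5.43 CPM of the CD3 complex, is the highest for Lck and the lowest of its group for Cd8a.

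NK cells, which carry CD8 in the rat, were examined in the same way. Of 19 NK cell markers, 17 were in the table, Klrb1 and Gzmb had no count in any rat, and 6 were tested. By edgeR's quasi-likelihood test 0 of these passed, beside 13.9% higher and 14% lower in all genes tested. At an unadjusted p-value under 0.05, 1 was higher and 0 lower. That gene was Il2rb, a chain of the interleukin-2 and interleukin-15 receptors (log2 fold change 1.99, adjusted p = 0.141). Il2rb was the only one of the 6 that DESeq2 called, and edgeR called it without CNT-T rat 2. It was at 2.14 CPM in CNT-7 rat 5 and at 0.230 to 0.831 CPM in the other rats of that group, and without rat 5 its log2 fold change was 1.07 (adjusted p = 0.446). The summed level of the list was 10.6 to 45.9 CPM after CNT-7 and 27.4 to 35.9 CPM after CNT-T, and rat 5 had the highest value of 6 of the 15 markers with any count. Much of this sum came from the activating receptor Klrk1, which ran from 3.72 to 40.0 CPM after CNT-7 and from 21.5 to 29.1 CPM after CNT-T. Without CNT-7 rat 11, the rat at 40.0 CPM, Klrk1 passed as lower. The part of NK cells in the levels of Cd8a, Cd2 and Cd226 was not tested.

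B cell and dendritic cell markers moved in opposite directions. Of 4 B cell markers tested, 2 fell and 0 rose: Bank1, a scaffold protein of B cell receptor signalling, went from 97.4 to 29.6 CPM (log2 fold change -1.72, SE 0.25, adjusted p = 0.00171), and the inhibitory lectin Cd22 had a log2 fold change of -0.39 (adjusted p = 0.0934) that passed in only 3 of the 8 fits without a rat. The list summed to 91.8 to 164.2 CPM after CNT-7 and 230.0 to 248.4 CPM after CNT-T. Of 6 dendritic cell markers tested, 3 rose, namely the chemokine receptor Ccr7 (adjusted p = 0.0111), the dead-cell receptor Clec9a (log2 fold change 1.76, adjusted p = 0.0262) and the transcription factor Batf3 (0.78, adjusted p = 0.0464). Ccr7 had 30, 94, 41 and 11 counts in CNT-7 rats 3, 5, 10 and 11 and at most 9 in any CNT-T rat. Both Ccr7 and Clec9a were highest in rat 5 and still passed without it (adjusted p = 0.0304 and 0.0775), with a log2 fold change of 1.49 for Clec9a. Batf3 passed in only 5 of the 8 fits without a rat. The dendritic cell list summed to 16.5 to 23.99 CPM after CNT-7 and 10.5 to 19.3 CPM after CNT-T. Of the 12 macrophage markers, 7 fell and 1 rose, beside 14% lower and 13.9% higher in all genes tested. The falls were led by the scavenger receptor Cd163 (log2 fold change -1.69) and by Adgre1 (-1.13), C1qc (-1.10) and C1qb (-0.86). Cd14, the lipopolysaccharide coreceptor, rose (0.46). Whether the cell types that these markers stand for have a part in the levels of the member genes was not tested.

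Lck belongs to the Src family, whose members Fgr and Lyn serve myeloid cells. Of 25 genes of this family and its regulators tested, 5 rose, 3 fell and 17 did not pass, a share near that of all genes, and the median log2 fold change was -0.0059. Fgr rose from 239 to 366 CPM (log2 fold change 0.61, adjusted p = 0.00639), Lyn from 474.5 to 588 CPM (0.31, adjusted p = 0.0169), and the phosphatase Ptprc, or CD45, which activates Src kinases, from 644 to 799 CPM (0.31, adjusted p = 0.0139). Src itself was called at 3.41 against 1.79 CPM (log2 fold change 0.93, adjusted p = 0.0831), but in only 1 of the 8 fits without a rat. The genes that fell were the adapter Sla (log2 fold change -1.02, adjusted p = 0.00897), the phosphatase Ptpn22 (-0.89, adjusted p = 0.0092) and the Csk anchor Pag1 (-0.71, adjusted p = 0.0198). Csk, the kinase that restrains the whole family, had a log2 fold change of 0.02, and the phosphatase Ptpn6 0.19 and the ubiquitin ligases Cbl and Cblb -0.0085 and 0.08, and none of these passed.

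Cd48 belongs to the SLAM family of leukocyte receptors. Of the other genes of the family and its adapters 7 were tested, and of these 5 rose, 0 fell and 2 did not pass. In all genes tested, 13.9% were higher and 14% lower. Slamf9 rose from 3.52 to 22.1 CPM (log2 fold change 2.64, adjusted p = 0.000688) and Slamf6 from 22.1 to 47.5 CPM (1.10, adjusted p = 0.00248). Ly9 rose from 1 to 4 counts per CNT-T rat, about the floor, to 16 to 31 counts per CNT-7 rat (adjusted p = 0.00164). The adapter Sh2d1b rose as well (1.36, adjusted p = 0.0164). The fifth, Slamf1 (0.52, adjusted p = 0.0459), did not pass without CNT-7 rat 5. Cd84 (0.42) and Slamf8 (-0.26) did not pass. The other 4 that rose did so also without rat 5. The median log2 fold change over the 7 was 1.10, beside 0.20 for Cd48, and the list was chosen with earlier results known.

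Other partners and relatives of the 9 genes were mostly not higher. Of 11 tested, 1 rose and 5 fell, beside 13.9% higher and 14% lower in all genes tested. Alcam, the ligand of the CD5 relative CD6, rose from 22.3 to 53.5 CPM (log2 fold change 1.26, SE 0.21, adjusted p = 0.00336). Sash1, a relative of Sash3, fell from 22.3 to 9.13 CPM (-1.29, SE 0.13, adjusted p = 0.000335), with no overlap between the groups, opposite to Sash3. Cd5l, a secreted macrophage protein of the same scavenger receptor family as CD5, fell from 6.69 to 0.456 CPM (-3.88, adjusted p = 0.00422). The small falls were those of Samsn1 (-0.31, adjusted p = 0.0593), Cd2bp2 (-0.30, adjusted p = 0.024) and Pstpip1 (-0.28, adjusted p = 0.0317), the latter pair binding the CD2 tail. Samsn1 passed in only 3 of the 8 fits without a rat, and Cd2bp2 and Pstpip1 in all 8. Cd244, the second receptor of CD48, and Nectin2, a ligand of CD226, were named after their values were seen and did not pass, at 57.6 against 46.5 CPM (0.31, adjusted p = 0.121) and 3.06 against 2.59 CPM (0.24).

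A further 20 surface genes that lymphocytes share with other leukocytes were examined. Of 14 tested, 8 rose, 1 fell and 5 did not pass, beside 13.9% higher and 14% lower in all genes tested. Their median log2 fold change was 0.43. The early activation antigen Cd69 rose from 0 to 4 counts per CNT-T rat to 10 to 41 counts per CNT-7 rat (adjusted p = 0.00314). The interleukin-2 receptor chain Il2ra rose from 1 to 6 counts per CNT-T rat to 14 to 64 counts per CNT-7 rat (adjusted p = 0.00932). Both were near or below the floor of 3 counts in CNT-T, so no fold is given for them, and neither could be tested when 10 counts were required in every rat. Il2ra was at 2.14 CPM in CNT-7 rat 5 and at 0.460 to 0.579 CPM in rats 3, 10 and 11, and it passed without rat 5 (adjusted p = 0.0182). The interleukin-7 receptor Il7r (log2 fold change 2.56, adjusted p = 0.0384) and Havcr2, or TIM-3 (1.75, adjusted p = 0.0445), rose as well. Cd69 was highest in rat 3 and Il7r in rat 10, as Cd226 and Cd2 were. Havcr2 no longer passed without CNT-T rat 12.

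**Figure D4:**
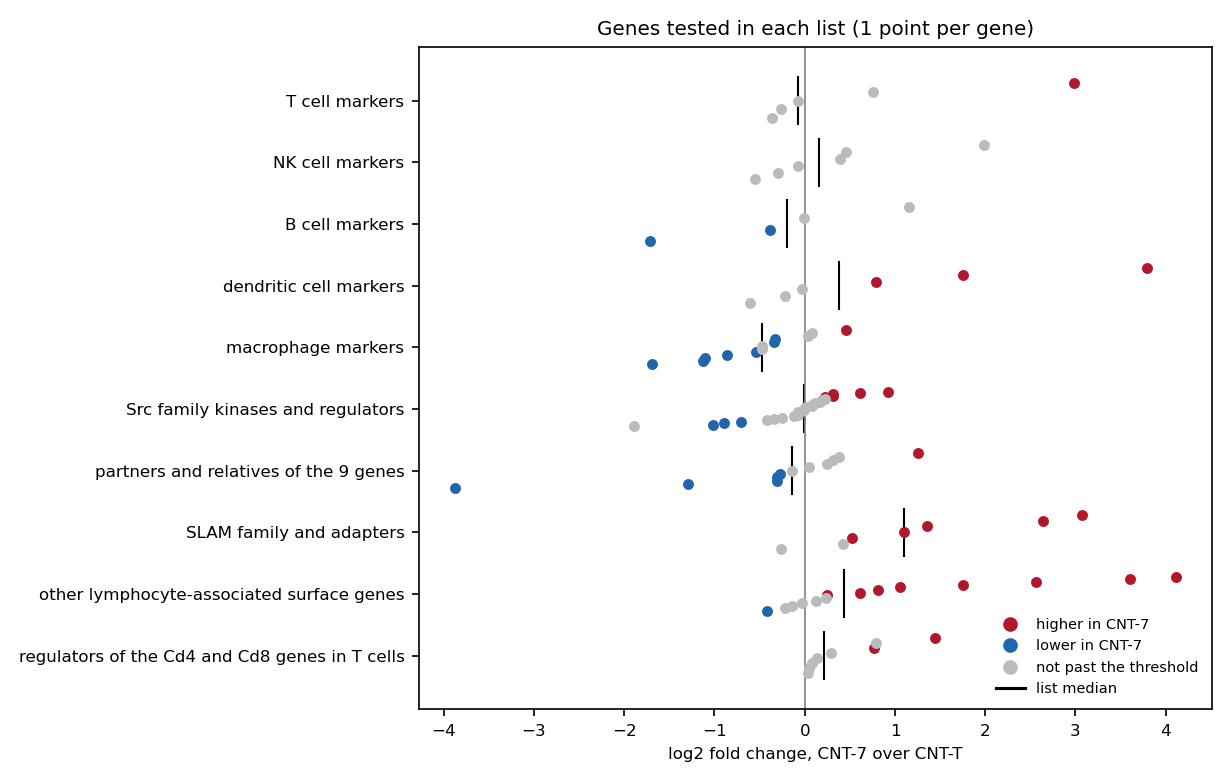
Log2 fold change (CNT-7 against CNT-T, horizontal axis) of each gene tested in the 10 lists examined beside the 9 genes, 1 point per gene, in red where it passed as higher in CNT-7, blue as lower and grey where it did not pass, with the list median as a bar. The SLAM family has a median of 1.10, and the other lists have medians between -0.47 and 0.43.

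Factors that control the Cd4 and Cd8 genes in T cells were examined last. Of 8 tested, 2 rose and 6 did not pass. Runx1, which represses Cd4 in developing T cells, rose from 13.1 to 22.4 CPM (log2 fold change 0.77, SE 0.096, adjusted p = 0.00084) and did not overlap between the groups. The chromatin organiser Satb1 was called (1.44, adjusted p = 0.0975), but only in 3 of the 8 fits without a rat, and it was highest in rat 5, without which its log2 fold change was 0.82 (adjusted p = 0.301). Zbtb7b (0.13), Runx3 (0.05), Cbfb (0.08), Gata3 (0.79), Ikzf1 (0.04) and Ets1 (0.29) did not pass. Across the 5 lists that do not mark a cell type, 21 of 65 genes tested rose and 9 fell. In all genes tested, 13.9% were higher and 14% lower. The 14 others of the 79 in the table had too few counts to be tested.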

How the data were processed

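The counts per gene came from sorted peritoneal macrophages of 8 rats, 4 given CNT-7 and 4 given CNT-T by their sample labels. All columns of the table were used, and 0 were left out. The rats are separate animals.

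The authors ran the ARMOR workflow. Reads of stranded mRNA libraries were checked with FastQC and quantified with Salmon (version not given in the sources used here) against Ensembl cDNA of Rnor_6.0, and imported with tximeta. The deposited values are estimated counts per gene, without normalization and in whole numbers. Estimated counts divide reads between similar transcripts, and no transcript lengths were at hand, so levels are not compared between genes as amounts.

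In R 4.3.3, edgeR 4.0.16 (quasi-likelihood test) was fitted to all genes that passed filterByExpr (minimum count 10, minimum total 15), with TMM normalization and Benjamini-Hochberg adjustment over all genes tested. The threshold was an adjusted p-value under 0.10, the study's own level. Fold changes set CNT-7 over CNT-T on the log2 scale, and their SE is their size over the square root of F. CPM uses TMM-normalized library sizes.

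The 9 genes and all lists were chosen with earlier results of these data known. All 9 are named. Of each list, the called genes with the largest changes (up to 4 in each direction) are named, and any tested gene of a list of up to 10. Other genes were named after their values were seen, among them the defining T cell genes, T cell markers that did not pass, Il2rb, Klrk1, Csk, Ptpn6, Cbl, Cblb, Cd244 and Nectin2. A few genes of the lists are counted but not reported here by name.

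Alternatives were DESeq2 1.42.0, upper-quartile scaling, no filter, at least 10 counts in every rat, a threshold of 0.05, a term for low and high rat numbers, and each rat left out. Scaling to total counts alone, and no filter together with CNT-7 rat 5 left out, were added after the data were seen. The scripts were tested on simulated counts. Promoter sequences are from RefSeq (GRCr8), a different assembly from that of the counts, and were matched by symbol for 6 of 9 genes.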

Additional observations from a re-analysis of the deposited data

Results flagged for a closer look

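Lck in CNT-7 rat 5 stood apart from its group. Its level of 4.59 CPM left a gap of 0.837 of the group's whole range to the nearest other rat, above Dixon's 95% critical value for 4 samples. This was 1 of 18 groups examined, of which chance alone would mark 0.9, since it marks about 1 group in 20. The same rat had 162 counts of the CD3 complex. Whether these have a part in its Lck level was not tested.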

How the results depend on the processing

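No paired analysis was possible because the groups share no rat number. Of the 9 genes 6 were past the threshold, and 4 to 7 were under the alternatives, with 4 of the 6 that could be tested when at least 10 counts were required in every rat. The 7 came with no filter on low counts, when Cd5 also passed as higher. Of 118 fold changes of the 9 genes under the alternatives, 115 stayed within 1 SE of the reported value, 3 moved further and 0 turned direction. Among the T, NK and B cell markers 3 of 15 genes tested were called. With no filter on low counts 9 of 46 were, 7 higher and 2 lower. With no filter and CNT-7 rat 5 left out (chosen after seeing the data) 2 of 45 were. With 1 rat left out at a time, 2 to 5 were called, with 5 called without CNT-T rat 2, for which the cause was not tested. Scaling to total counts alone, also chosen after seeing the data, left 6 of the 9 genes past the threshold. Of 160 counts of calls per list under the alternatives, 134 were within 1.5 times the reported count. Depth limits Cd5 and Cd2, which had at most 9 counts in any CNT-T rat, and Cd226 in the 2 CNT-T rats with 2 and 6 counts. It also limits the T and NK cell markers that had too few counts to be tested, 13 of 18 and 11 of 17.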
